A study of Mus musculus with 3 samples.

Results

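The loci of 7 transcription factors of epithelial cells were examined in the open chromatin of fetal mouse intestinal epithelium: Klf3, Klf4, Klf5, Klf6, Elf3, Ehf and Grhl2. Each locus was the annotated gene plus 50 kb on each side, and every ATAC-seq peak touching it was taken. ATAC-seq marks accessible DNA, into which the Tn5 transposase inserts sequencing adapters. Merging overlapping peaks of the 3 libraries gave 40 regions at the 7 loci, out of 33564 in the whole series. The members are defined by gene name and not by the values of their peaks. They were, however, chosen with earlier results of these data known.

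The series compared 1 control library with 2 libraries lacking both HNF4 factors, to find chromatin whose accessibility depends on HNF4. The control came from an embryo genotype given as Hnf4gCrispr/+, heterozygous for a CRISPR mutation of Hnf4g. No Cre or floxed Hnf4a allele is named for it in the labels. The 2 double knockout libraries, replicates 1 and 2 (DKO1 and DKO2), carried Shh-Cre, Hnf4a f/f and Hnf4gCrispr/Crispr. Shh-Cre removes floxed DNA in the Shh-expressing epithelium of the embryonic gut, so the floxed Hnf4a alleles are targeted there, whereas the Hnf4g mutation is in all cells. All cells came from small intestine at stage E16.5 and were selected with magnetic beads for the epithelial surface protein EpCAM, with 20000 cells per library. Whether embryos were pooled is not given in the labels used here, so the difference between DKO replicates may be technical.

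KLF proteins are zinc finger transcription factors that bind GC-rich and CACCC-type sequences. In the intestine, Klf5 is known from proliferating progenitor cells and Klf4 from differentiating cells, goblet cells in particular. Elf3 and Ehf are ETS factors, which bind sequences around a GGAA core, and both are largely restricted to epithelia. Grhl2 is a Grainyhead-like factor that maintains epithelial identity and activates genes of cell junctions.

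Open chromatin at the gene start was a shared property of most of these loci. The starts of Klf3, Klf4, Klf5, Klf6, Elf3 and Grhl2 carried a peak in all 3 libraries, and the Ehf start carried one in both DKO libraries only. Over the series, 38.3% of 15166 genes had a start peak in all 3 libraries, and 7.26% had one in both DKO libraries but not in the control. Any listed start of a gene counted there, whereas each member had a single start. Starts of members and other genes were placed with these same peaks, which favours a peak at a placed start. Elements away from the start differed from locus to locus. At Klf3, 2 of the 3 regions away from the start were called in all 3 libraries. Over the 7 loci 15.2% of the 33 regions away from the start were in this class, against 19.9% over the series. The sets are not alike: the series value leaves out regions at any listed start, the member value only those at the member's own start. Starts of genes without a listed start stay in the series value. The Klf6 locus held 4 of the 6 member regions found in both DKO libraries and not in the control. The Elf3 locus held 3 of the 8 found only in the control. These classes made up 15% and 20% of the 40 member regions, against 16.0% and 13.0% of all regions of the series.

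The promoter stretches that lay inside these shared start regions are shown for the 4 members present in the RefSeq promoter table, Klf3, Klf4, Klf6 and Elf3, because these start regions were called in all 3 libraries. Each is the 250 bases before the start on the gene's own strand, 5′ to 3′, in assembly GRCm38.p6: chr5:64803271-64803520 (plus strand) for Klf3, chr4:55532476-55532725 (minus strand) for Klf4, chr13:5861239-5861488 (plus strand) for Klf6 and chr1:135258473-135258722 (minus strand) for Elf3. Capitals mark GGGCGG on either strand, a GC-box sequence to which KLF and SP factors bind.
Klf3: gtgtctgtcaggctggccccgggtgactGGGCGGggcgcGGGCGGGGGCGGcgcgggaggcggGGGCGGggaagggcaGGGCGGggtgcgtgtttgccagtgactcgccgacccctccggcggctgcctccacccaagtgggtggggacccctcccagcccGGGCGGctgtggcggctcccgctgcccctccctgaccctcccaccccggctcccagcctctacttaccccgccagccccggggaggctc
Klf4: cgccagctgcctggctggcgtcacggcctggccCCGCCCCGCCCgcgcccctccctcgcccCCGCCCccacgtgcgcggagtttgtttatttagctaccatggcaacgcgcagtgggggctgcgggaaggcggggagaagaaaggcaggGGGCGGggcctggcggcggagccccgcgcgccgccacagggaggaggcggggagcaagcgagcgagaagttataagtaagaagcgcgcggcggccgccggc
Klf6: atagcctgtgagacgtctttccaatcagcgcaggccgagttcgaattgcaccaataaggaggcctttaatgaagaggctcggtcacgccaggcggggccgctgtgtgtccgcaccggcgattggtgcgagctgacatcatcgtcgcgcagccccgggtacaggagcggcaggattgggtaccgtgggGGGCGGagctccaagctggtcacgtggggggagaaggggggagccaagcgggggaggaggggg
Elf3: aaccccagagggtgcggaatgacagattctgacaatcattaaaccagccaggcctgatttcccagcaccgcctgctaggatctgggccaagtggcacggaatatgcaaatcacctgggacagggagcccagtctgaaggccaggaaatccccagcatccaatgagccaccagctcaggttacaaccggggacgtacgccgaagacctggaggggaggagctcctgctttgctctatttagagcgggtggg
The merged peak region reached from 707 bases before the placed start at Klf3, 613 at Klf4, 564 at Klf6 and 368 at Elf3 to past it, and so covered each stretch as placed. The peak of a single library did not always do so: the control peak at Klf3 covered 144 of the 250 bases and ended before the placed start, and the peak of DKO1 at Klf4 covered 238. The error of the placed starts was not measured, so these base counts are approximate. GGGCGG occurred 6 times in the Klf3 stretch, 4 times in Klf4, 1 time in Klf6 and not in Elf3. Of all 32851 RefSeq promoters, 32.7% held it in the same window. The G and C content was 78.4% for Klf3, 74% for Klf4, 64.8% for Klf6 and 57.2% for Elf3, against a median of 52.4% over all promoters. None of the 4 stretches held CACACCC (a KLF sequence, in 6.93% of promoters), CCGGAAG (ETS, 6.91%), AACCGGT (GRHL, 0.831%) or CAAAGTC (HNF4, 3.84%), searched on both strands.

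The lists differed in length, with 16977 control peaks, 18268 in DKO1 and 26648 in DKO2. Each peak is a fixed window of 601 bp with a score whose meaning is not stated, so peak strength was compared as a percentile rank, the position of a score among all scores of its own library, where 100 is the strongest. Sequencing depth is unknown, and a missing peak does not show closed chromatin. Peaks on the Y chromosome differed too, with 2 in the control against 24 and 40 in DKO1 and DKO2. With 1 control library no test of genotype was made: an exact permutation of the 3 labels cannot give a p-value below 0.333. The difference between the DKO replicates stands in for replicate error throughout.

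The epithelial origin was checked at the starts of 6 of 10 marker genes that could be matched. Epcam (ranks 65.7, 66.0 and 76.9 in the control, DKO1 and DKO2) and Cldn3 (71.6, 93.1 and 89.5) had a peak in all 3 libraries, Cldn4 and Cldn7 in both DKO libraries, Krt8 in DKO1, and Krt18 in none. Among 6 mesenchymal markers, 1 control peak was found at Tbx18 (rank 17.0) and 1 peak of DKO1 at Acta2 (rank 38.4). The 3 immune markers (Ptprc, Cd3e, Lyz2) and the 4 endothelial markers (Kdr, Tek, Tie1, Emcn) had no peak at the start in any library. Of 2 neural markers, Elavl4 had a peak in both DKO libraries (ranks 38.4 and 69.8) and Tubb3 had none. Over all gene starts, 38.3% had a peak in all 3 libraries and 44.8% had none in any. The epithelial list had 33.3% and 16.7%, so with 6 matched genes the check cannot settle the origin. The part of other cell types in the results below was not tested.

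**Figure D1:**
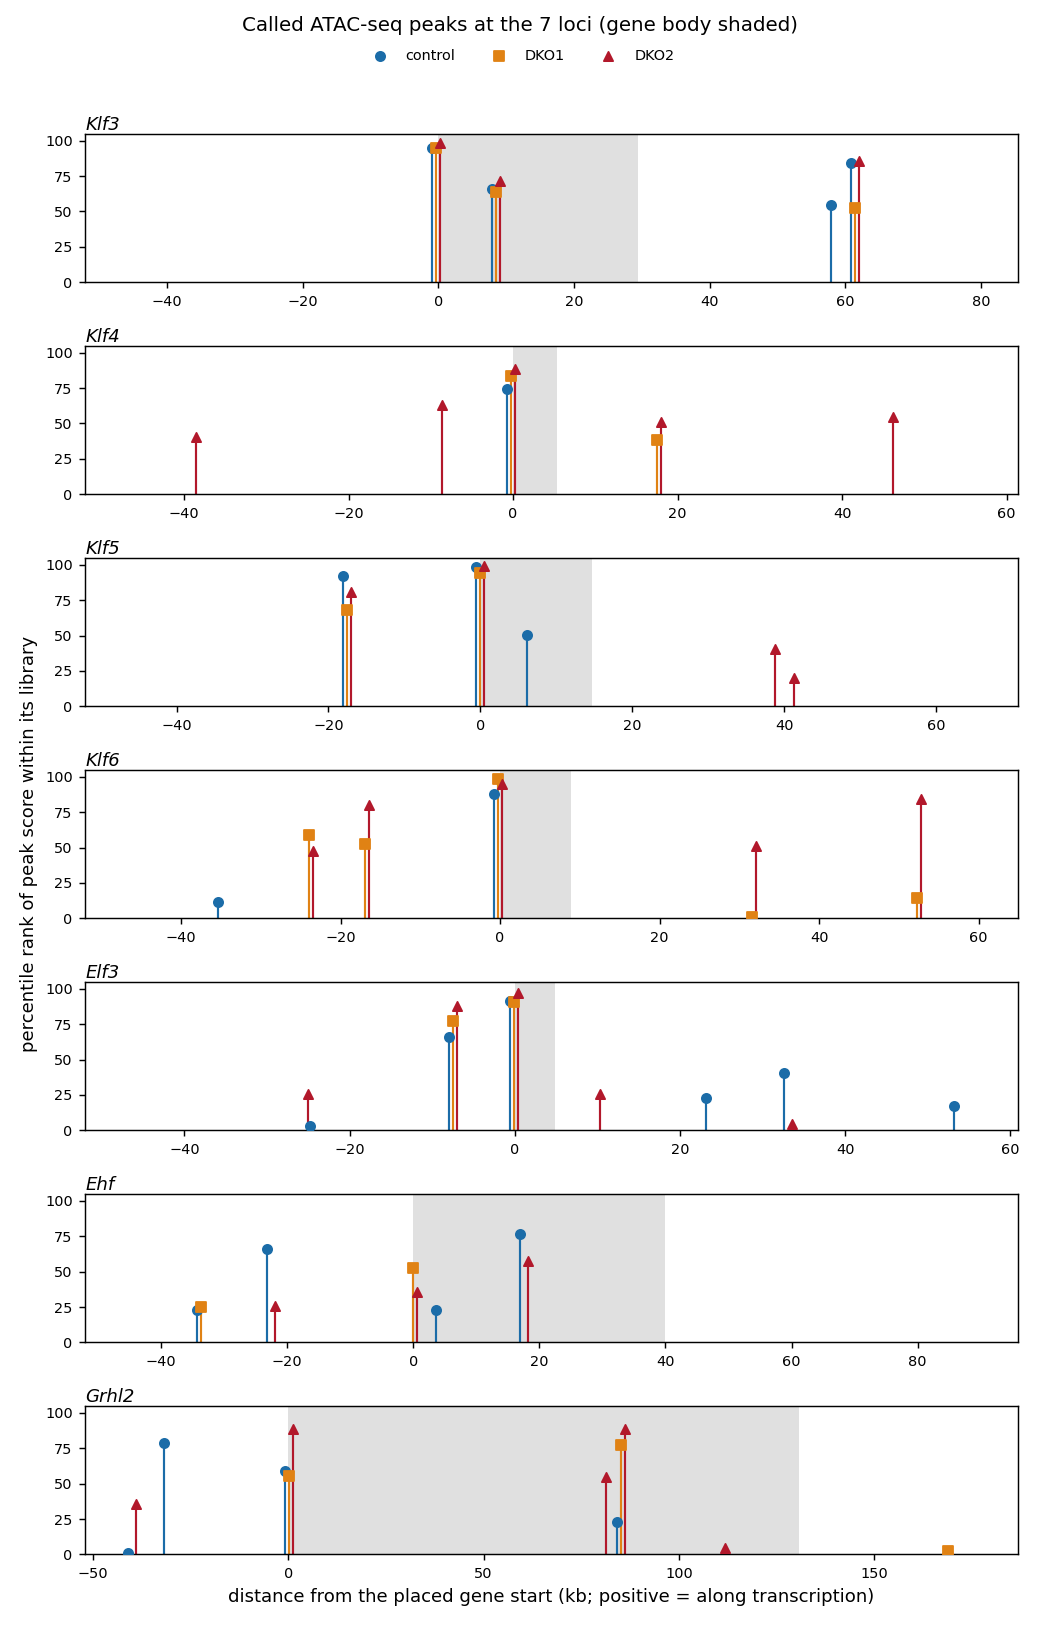
Called peaks along the 7 loci, with the distance from the gene start in kb on the horizontal axis and the percentile rank of the peak score within its library (0 to 100) on the vertical axis; the gene body is shaded and the 3 libraries are drawn slightly side by side for visibility. The start carries markers of all 3 libraries in every panel except Ehf, and the Klf6 panel holds 4 regions with DKO markers only.

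At the start of Klf5, the KLF of proliferating epithelium, the peak ranked 98.3 in the control, 94.3 in DKO1 and 98.9 in DKO2. Klf3, which encodes a repressor that recruits CtBP, followed with 94.8, 95.1 and 98.3. Elf3 ranked 91.1, 90.9 and 97.2. At Klf5 and Elf3 the control lay between the DKO replicates, and at Klf3 just under both. Klf6 ranked 88.2 in the control and 98.3 and 95.2 in the DKO replicates, and Klf4 ranked 74.2 against 83.6 and 88.8. At both of these starts the control was below both DKO libraries, by 8.59 points (Klf6) and 12.0 points (Klf4) from their mean. Grhl2 ranked 58.8 in the control, 55.7 in DKO1 and 88.8 in DKO2, so the DKO replicates lay on either side of the control and differed from each other more than from it. At Ehf no control peak was called, and the DKO ranks of 52.6 and 35.8 were the lowest of the 7 starts in each DKO library.

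The order of the 4 strongest starts was not fixed. Klf5, Klf3, Elf3 and Klf6 were the first 4 in every library, led by Klf5 in the control and DKO2 and by Klf6 in DKO1. Klf4 came next, sharing its rank with Grhl2 in DKO2, and Ehf came last. Among gene starts called in all 3 libraries the median rank was 65.7 in the control, 73.9 in DKO1 and 78.4 in DKO2, so a lower rank in the control was also the general direction at starts. Over the series, the control minus the mean of the DKO ranks had a median of -5.89 points at regions on gene starts called in all 3 libraries. The 6 shared member starts had a median of -5.81 points, with a range from -13.4 (Grhl2) to 1.70 (Klf5).

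**Figure D2:**
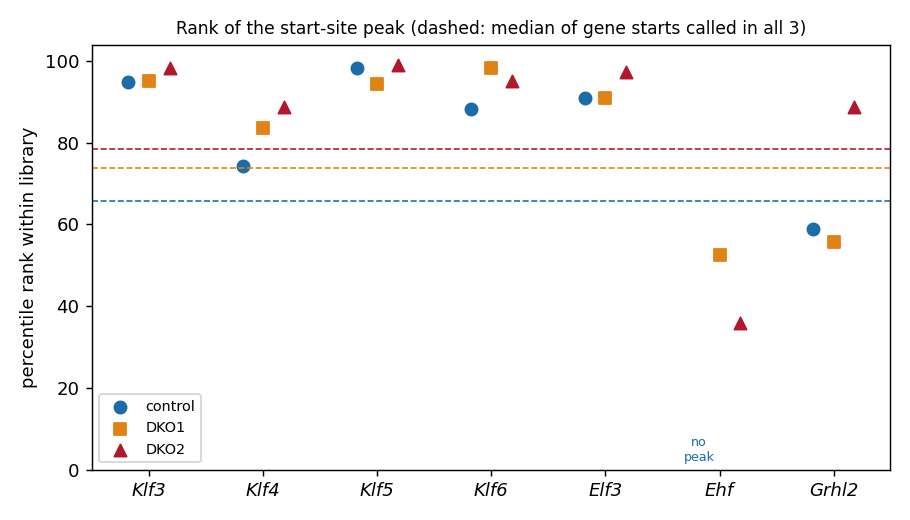
Percentile rank of the start-site peak within its library (vertical axis, 0 to 100) for each member, 1 marker per library, with dashed lines at each library's median over gene starts called in all 3. Klf3, Klf5, Klf6 and Elf3 lie above all 3 lines in every library, whereas Grhl2 is above its line only in DKO2 and Ehf has no control peak.

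The Klf3 gene (chr5:64803521-64832901, GRCm38, plus strand) had 4 regions, and 3 of them were called in all 3 libraries. All region positions from here on are those of the deposited lists, in mm9. The start region, chr5:65194018-65194823, also overlapped Gm38457, another gene model, within 1 kb of an end not identified as its start or finish. The signal of this region cannot be assigned to one gene or the other. A region inside the gene, 8.45 kb past the start at chr5:65202585-65203901, ranked 65.7 in the control, 63.7 in DKO1 and 71.8 in DKO2. The control lay between the DKO values there. A region 61.4 kb past the start and beyond the gene, at chr5:65255758-65256482, ranked 84.0, 52.6 and 85.4. Here the low library was DKO1, and the control and DKO2 were close together. The single control-only region, chr5:65252966-65253566 (rank 54.8), lay 2.79 kb from the nearest DKO summit, which belongs to that neighbour.

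The Klf4 gene (chr4:55527137-55532475, GRCm38, minus strand) had 5 regions, of which only the start was shared by all libraries. The start was also the only control peak of the locus. A region 17.5 kb past the start, beyond the gene at chr4:55527582-55528193, was called in both DKO libraries with ranks of 38.4 and 51.4, and the nearest control summit was the one at the start, 17.5 kb away. The other 3 regions were called in DKO2 alone. They lay 9.19 kb and 39.0 kb before the start and 45.7 kb past it, with ranks of 63.0, 40.2 and 54.7. Of the 4 regions away from the Klf4 start, 1 was thus shared by the DKO replicates.

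The Klf5 gene (chr14:99298691-99313412, GRCm38, plus strand) had a strong region 17.5 kb before its start, at chr14:99679931-99680629. It ranked 91.9 in the control, 68.1 in DKO1 and 81.0 in DKO2. The control was above both DKO libraries, by 17.3 points from their mean, while the DKO replicates differed by 12.9 points. This was the largest positive difference among the 11 shared regions, and it did not reach 25 points over both DKO ranks. A control-only region lay 6.68 kb past the start inside the gene, at chr14:99704185-99704785 (rank 50.4), with the nearest DKO summit 6.69 kb away. Beyond the gene, 2 regions at 38.3 and 40.7 kb past the start were called in DKO2 alone, with ranks of 40.2 and 19.8.

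The Klf6 gene (chr13:5861489-5870393, GRCm38, plus strand) encodes a broadly expressed KLF, and its locus held the most regions found in both DKO libraries and not in the control. At 24.0 kb before the start, chr13:5836426-5837036 ranked 58.6 in DKO1 and 47.9 in DKO2. At 16.9 kb before the start, chr13:5843511-5844134 ranked 52.6 and 79.8. Both had middling to high ranks in both libraries. Beyond the gene, chr13:5891915-5892578 (31.5 kb past the start) ranked 0.827 and 51.4, and chr13:5912512-5913378 (52.2 kb past it) ranked 14.4 and 84.3. These last 2 were weak in DKO1 and stronger in DKO2. The nearest control summit to the 4 regions was 10.9 to 52.5 kb away. With the same number of peaks in every library, 3 of the 4 kept both DKO calls. With a score of at least 21 required in every library, the 2 upstream regions kept them. The only distal control peak of the locus was a weak control-only region 34.9 kb before the start (rank 11.4).

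The Elf3 gene (chr1:135253574-135258472, GRCm38, minus strand) had the most regions of the 7 loci, 8. A region 7.47 kb before the start, at chr1:137162137-137162906, lay inside the neighbouring gene Rnpep and was called in all libraries. It ranked 65.7 in the control and 77.1 and 88.0 in the DKO replicates, 16.9 points lower in the control than the DKO mean, with 10.9 points between the DKO replicates. The 3 control-only regions were weak. chr1:137101058-137101658 (53.7 kb past the start) ranked 17.0, chr1:137131120-137131720 (23.6 kb past it) ranked 22.8, and chr1:137179058-137179658 (24.3 kb before it, inside Rnpep) ranked 2.96. None of the 3 was left with a score of at least 21 required. The region ranked 2.96 had a summit of DKO2 at 1.18 kb, in a region within 1 kb of an end of Rnpep. Whether this end is the start of Rnpep was not determined, so that region may lie at a neighbouring promoter. A region 33.1 kb past the start was called in the control (rank 40.3) and DKO2 (rank 4.72). Regions 9.89 kb past the start and at that same end of Rnpep were called in DKO2 alone, both with a rank of 25.4. DKO1 had no peak in the locus besides the start and the region in Rnpep at 7.47 kb.

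The Ehf gene (chr2:103263431-103303275, GRCm38, minus strand) was the only locus with no region common to all libraries, and the only one with its start missing from the control. The start region was chr2:103143108-103143785, and the nearest control summit lay 4.37 kb away inside the gene, in the control-only region chr2:103138777-103139377 (rank 22.8). At equal list lengths the start was kept by DKO1 alone: the DKO2 peak had a score of 18, equal to the lowest score kept in that library, and fell out in the random draw among tied peaks. Farther into the gene, 17.5 kb past the start, chr2:103125575-103126225 ranked 76.6 in the control and 57.7 in DKO2, with no peak in DKO1. A region 22.5 kb before the start, chr2:103165552-103166272, likewise ranked 65.7 in the control and 25.4 in DKO2, with none in DKO1. A region 33.7 kb before the start was called in the control (22.8) and DKO1 (24.7). The control had 4 of the 5 Ehf regions, against 2 in DKO1 and 3 in DKO2, and the DKO replicates shared only the start.

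The Grhl2 gene (chr15:37232821-37363569, GRCm38, plus strand) contained the region with the largest rank difference between control and DKO. It lay inside the gene 85.2 kb past the start, at chr15:37247488-37248147, and ranked 22.8 in the control, 77.1 in DKO1 and 88.8 in DKO2. The control was 60.1 points below the DKO mean, and the DKO replicates were 11.6 points apart. It was the 1 shared region of the 7 loci in which the control rank was at least 25 points below both DKO ranks, a shift seen in 12.3% of all shared regions. The opposite shift, 2.63% of all shared regions, occurred in none of the 11. A second region of the gene body 4.90 kb from it in the direction of the start was called in DKO2 alone (rank 54.7). Before the start, the control-only region chr15:37131651-37132251, 30.7 kb away, had a rank of 78.8, the highest of the 8 control-only regions, and its nearest DKO summit lay 9.22 kb away. That neighbour, 40.0 kb before the start, ranked 0.937 in the control and 35.8 in DKO2. The other 2 regions of the locus, 110.8 kb past the start and beyond the gene inside Ncald, were called in DKO2 (rank 4.72) and DKO1 (rank 2.57) alone.

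**Figure D3:**
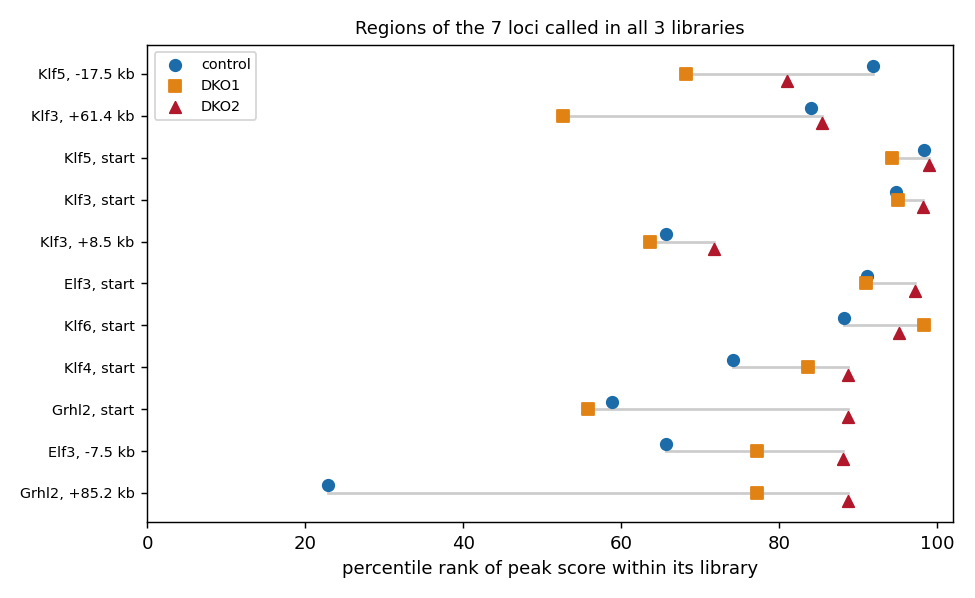
Percentile rank within each library (horizontal axis, 0 to 100) of the 11 regions called in all 3 libraries, 1 row per region, ordered by the control rank minus the mean DKO rank, with markers of the libraries offset vertically for visibility. In the lowest row, inside Grhl2, the control stands at 22.8 against 77.1 and 88.8, and in the top row, before Klf5, the control stands at 91.9 against 68.1 and 81.0.

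Across the 7 loci, 11 of 40 regions (27.5%, Wilson 95% interval 16.1 to 42.8%) were called in all 3 libraries, against 30.9% over the series. Control-only regions numbered 8 (20%, interval 10.5 to 34.8%), against 13.0%. With a score of at least 21 required in every library, 3 of these 8 stayed control-only. Regions in both DKO libraries and not in the control numbered 6 (15%, interval 7.06 to 29.1%), against 16.0%. Each series value lay inside the interval of the 7 loci, so no departure from the background can be claimed with 40 regions. Intervals cover counting error over regions only. They take regions as independent, although regions cluster by locus and all come from the same 3 libraries, so they are not a test. DKO2 alone held 9 regions (27.2% over the series), 1 in DKO1 alone (6.19%), 4 in the control and DKO2 (5.32%) and 1 in the control and DKO1 (1.38%).

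Away from the 7 starts, the 33 remaining regions comprised 5 called in all libraries, 8 control-only and 5 in both DKO libraries alone. Over the series these classes made up 19.9%, 16.0% and 16.7% of 25595 regions away from gene starts. There, regions at any listed start were left out, whereas at the 7 loci only those at the member's own start were. These shares are therefore only roughly comparable. The 8 control-only regions had a median rank of 22.8, and the 9 of DKO2 alone had a median of 40.2, so most of them ranked below the middle of their lists. Where both DKO libraries had a peak, at 17 regions, the control lacked one at 6 (35.3%, interval 17.3 to 58.7%), against 34.1% over the series. Of 15 called in the control and DKO2, 4 lacked a peak of DKO1 (26.7%, interval 10.9 to 52.0%), against 14.7% over the series. Of 12 called in the control and DKO1, 1 lacked a peak of DKO2 (8.33%, interval 1.49 to 35.4%), against 4.29% over the series. Each series value lay inside its interval, and the 3 intervals overlapped with 12 to 17 regions behind each. These intervals have the same limit.

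**Figure D4:**
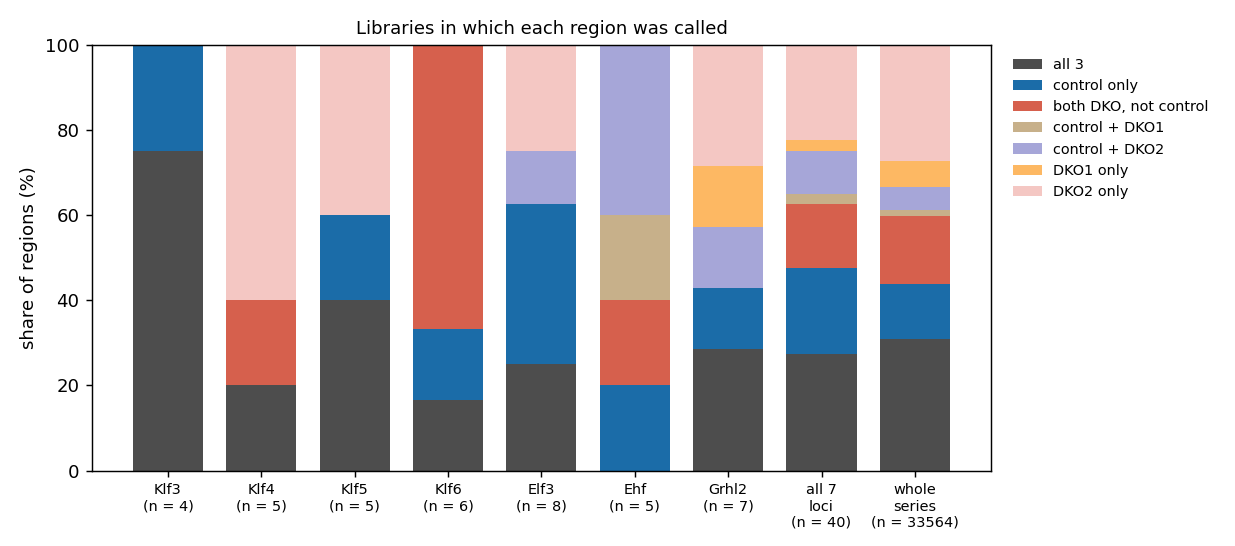
Share of regions (vertical axis, percent) by the set of libraries in which they were called, for each locus, the 7 loci together and the whole series, with the number of regions under each bar. The bars of the 7 loci and of the series are alike in the all-3 share (27.5% and 30.9%), while single loci, with 4 to 8 regions each, range from no shared region (Ehf) to 3 of 4 (Klf3).

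At the 11 shared regions, the control minus the mean DKO rank had a median of -3.03 points, against -5.05 points over the 10355 shared regions of the series. The standard deviation across these 11 regions was 20.5 points, and that of DKO1 minus DKO2 was 11.5 points. Over the shared regions of the series these values were 21.5 and 18.7 points. The 20.5 points include the Grhl2 gene-body region at -60.1 points, whereas all other shared member regions lay between -16.9 and 17.3 points. The median was 0.12 points against DKO1 alone and -6.18 points against DKO2 alone.

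Peaks were dense at these loci compared with other genes. Counting regions per 100 kb of gene plus flanks, Elf3 had 7.63, Klf6 5.51, Klf4 4.75, Klf5 4.36, Ehf 3.58, Klf3 3.09 and Grhl2 3.03. The median over the 18910 placed protein-coding genes was 2.39, with quartiles of 0.991 and 3.80. All 7 members lay above the median, and Klf4, Klf5, Klf6 and Elf3 lay above the upper quartile. Neighbouring genes share regions, so genes are not independent values in this comparison.

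In the wider families, starts with and without peaks were about equally frequent. Of 39 other KLF, ETS, GRHL and OVOL genes, 29 could be matched to a start, and 14 had a peak in all 3 libraries while 13 had none in any (48.3% and 44.8%), against 38.3% and 44.8% over all gene starts. In the KLF family, Klf2, Klf7, Klf9, Klf11 and Klf13 were called in all 3 libraries, and Klf1 (erythroid), Klf8, Klf12, Klf15 and Klf17 in none. In the ETS family, 8 of 16 matched genes were called in all 3, among them the widely expressed Elf1, Elf2 and Ets2, and 7 in none, among them Elf5, Spdef (a goblet and Paneth cell factor), Spib and Erg (an endothelial factor). Elk1 was called in both DKO libraries and not in the control, with ranks of 68.1 and 60.5. Of the Grainyhead-like and Ovo-like genes matched, Grhl1 was called in all 3, Ovol2 in DKO2 alone (rank 47.9) and Grhl3 in none. No matched companion gene had a start peak in the control only, which was the class of 1.46% of all gene starts.

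The 50 kb limit of the loci fell between regions of ordinary strength. The outermost region inside it was the Elf3 control-only region 48.5 kb from the gene body. Just outside were a region 50.8 kb from Klf5 called in both DKO libraries (ranks 46.1 and 71.8) and a region 52.4 kb from Klf3 called in all 3 (22.8, 24.7 and 44.1).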

How the data were processed

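Positions and scores of called ATAC-seq peaks were used, 1 list per library, as deposited by the authors. The submitters' processing notes name FastQC 0.11.3, Bowtie2 2.2.6, deepTools 2.4.2, MACS 1.4.1 and the build mm9; roles, thresholds, duplicate handling and any transposase shift are not given in the sources used here. The unit of the deposited score is not stated, so scores became percentile ranks within a library, ties averaged.

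RefSeq genes were at hand for GRCm38.p6 only. Each gene was shifted by the offset (up to 8 Mb) that put most peaks within 300 bp of ends of protein-coding genes in the surrounding 5 Mb. The best offset scored 2.15 to 4 times the next for the 7 members; 1.5 times was required of other genes, placing 18910 of 21631. On simulated lists, 39 of 40 offsets passed and all 39 were right to within 300 bp. Each simulated list had a single offset along the chromosome and part of its peaks planted at gene ends. Offsets that change within the 5 Mb were not simulated, so the placement of the members was not tested by this. Starts are approximate. Offsets from 2 Mb instead of 5 Mb differed by up to 159 bp (Klf6), and Klf4 could not be compared because its 2 Mb offset was tied. This difference is not the error of the placed starts, which was not measured. Member starts were gene boundaries, with the strand taken from the RefSeq promoter table or, for Klf5, Ehf and Grhl2, from general knowledge. For all other genes, any start listed in that table counted. A peak within 500 bp of a start counted. Exons and the Hnf4 alleles were not analysed here.

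Peaks overlapping by at least 1 bp were merged into regions, keeping the highest score per library. Coordinates are given for start-site, control-only and DKO-only regions, those shifted by at least 25 points, and the highest-ranked away from the start; others were chosen after their values were seen. The members and gene lists were chosen with earlier results of these data known. Python 3.11.15, numpy 2.4.6, pandas 2.3.3, scipy 1.17.1 and matplotlib 3.10.9 were used.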

Additional observations from a re-analysis of the deposited data

How the results depend on the processing

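Of 55 values recomputed under an alternative, 47 stayed within 1.5 times the count or within the spread between DKO replicates, and 8 moved. A change of sign was looked for only at the Grhl2 gene-body difference, and none occurred. The spread used there came from the same DKO replicates, so leaving out either could not move the difference beyond it. The spread for the median rank difference was built the same way, so leaving out a replicate is a weak check there too. Flanks of 20 kb gave 3 control-only and 3 DKO-only regions, and flanks of 100 kb gave 13 control-only, 11 DKO-only and 18 shared regions, by construction of a smaller or larger window. The stricter threshold, a score of at least 21, gave 4 control-only regions. Of these, 3 were among the original 8, and the other, 22.5 kb before the Ehf start, became control-only by losing its DKO2 peak. This threshold moved the median rank difference to -9.55 points. It also removed the control peak of the Grhl2 gene-body region, so no difference could be given there. Without DKO replicate 1 or 2, DKO-only regions numbered 7 to 15 against 6, control-only regions 9 to 12 against 8, shared regions 12 to 15 against 11, and the median rank difference was -6.13 to -0.0878 points. The higher DKO-only value came from leaving out DKO replicate 1, which keeps the longer list of DKO replicate 2. At equal list lengths control-only regions numbered 11 and DKO-only regions 4. The Grhl2 gene-body difference was -56.0 points at equal list lengths and -65.9 to -54.3 points without DKO replicate 1 or 2; these 3 alternatives were chosen after seeing the data. Offsets taken from 2 Mb differed by at most 159 bp (Klf6) from those of 5 Mb, except for Klf4, where the best offset was tied (6 against 6) and the locus was left out. Members with a start peak in all libraries numbered 5 to 6 in all alternatives, the 5 coming from the unplaced Klf4. No paired analysis was possible because only 1 control library was used, with no number to pair by. The unknown depth limits each missing peak, which cannot be told from a peak just under the calling threshold.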
